A study of Mus musculus with 3 samples.

Results

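The chemokine genes Cxcl12 and Cxcl14 and the receptor genes Cxcr4 and Ackr3 were followed across mouse dorsal skin and early wounds. They are 4 of the 27998 genes in the deposited count tables. The 4 were chosen by name with earlier results of these data in view, from their UMI counts (unique molecular identifiers, one per captured transcript) by library and cell class, so their levels describe these libraries and test nothing. Single cells were profiled in 3 libraries from dorsal skin. All mice were C57BL/6 males of 7 to 9 weeks. The first, CTRL, came from non-lesional skin. The other libraries, PWD2 and PWD7, came from the bed of a full-thickness wound of 1.0 by 0.5 cm at post-wounding day 2 and day 7. Collagenase D with DNase1 freed the cells in every group, and the labels name no transgene, mutant allele or drug in any of the 3 groups. The sources used here do not say how many animals went into each library.

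CXCL12 is a chemokine that stromal and endothelial cells secrete. It binds CXCR4, a receptor coupled to inhibitory G proteins, and through it draws leukocytes along a gradient or holds them in a niche. ACKR3 binds the same ligand without classical G protein signalling, recruits beta-arrestin and takes the chemokine up, which lowers the amount outside the cell. CXCL14 is made constitutively in resting epithelia, the epidermis among them, attracts cells of the myeloid lineage, and has a less settled receptor biology.

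All 4 genes are protein coding, and no other annotated gene overlaps any of them in GENCODE M21 on GRCm38. Cxcl12 (ENSMUSG00000061353) lies at chr6:117168535-117181367 on the plus strand and Cxcl14 (ENSMUSG00000021508) at chr13:56288643-56296551 on the minus strand. Ackr3 (ENSMUSG00000044337) lies at chr1:90203980-90216751 on the plus strand and Cxcr4 (ENSMUSG00000045382) at chr1:128588199-128592293 on the minus strand. The 100 bases before each RefSeq start on GRCm38.p6 are shown because the 2 ligand genes, and in fibroblasts Ackr3, differed in level between libraries, and these are the sequences next to which their transcription starts. They are read 5′ to 3′ on the strand of the gene, and capitals mark matches on either strand to the GC box GGGCGG and the TATA box TATAAA. They cover chr6:117168435-117168534 (plus) for Cxcl12, chr13:56296552-56296651 (minus) for Cxcl14, chr1:90203880-90203979 (plus) for Ackr3 and chr1:128592300-128592399 (minus) for Cxcr4.
Cxcl12: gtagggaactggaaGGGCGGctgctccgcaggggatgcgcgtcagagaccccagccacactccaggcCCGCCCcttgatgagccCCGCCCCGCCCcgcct
Cxcl14: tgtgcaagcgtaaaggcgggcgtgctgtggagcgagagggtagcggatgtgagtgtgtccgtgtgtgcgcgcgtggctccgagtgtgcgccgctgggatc
Ackr3: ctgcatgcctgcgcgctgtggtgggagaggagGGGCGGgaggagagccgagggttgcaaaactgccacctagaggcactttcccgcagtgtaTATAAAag
Cxcr4: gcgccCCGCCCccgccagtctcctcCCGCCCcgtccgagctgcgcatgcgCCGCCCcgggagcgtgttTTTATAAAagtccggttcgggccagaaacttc
In the whole window from 250 bases before to 50 bases after the start, both strands and overlapping matches counted, TATAAA occurred 2 times for Cxcr4, at positions -32 and -30, 1 time for Ackr3, at -8, and 0 times for the 2 ligand genes. It occurs in 13.6% of 32851 RefSeq promoter windows of this length. GGGCGG occurred 5, 3, 3 and 1 times for Cxcl12, Cxcl14, Cxcr4 and Ackr3, against 35.7% of windows with at least 1 match. The matches of Cxcl14 all lie after its start and outside the bases printed. ACGTG (found in 19.6% of windows), TGANTCA (7.81%), TGACGTCA (1.79%) and the NF-kappaB motif (4.51%) had no match in the 4 windows. A match says only that the letters are there, and no match says nothing about a factor.

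The libraries held 10857, 8707 and 7317 cell barcodes, in the order CTRL, PWD2, PWD7, with 123088680, 138046172 and 102345327 UMIs. After filters 9449, 7440 and 4930 cells remained, with median UMIs of 9453, 7962 and 10943.5. Cells were assigned to 16 classes from lists of 8 markers each, and 89.5% to 95.7% of a library's cells were assigned. The libraries shared 14 to 24 barcode sequences pairwise. With 1 library per group there is no replicate and no test between groups. Levels are CPM, the UMIs of a gene scaled to an equal total of class UMIs, with exact Poisson 95% intervals. Shares have exact Clopper-Pearson intervals, and ratios have exact conditional intervals. All of these cover counting error alone, and differences between animals cannot be told apart from differences between conditions.

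Over all kept cells, Cxcl12 stood at 75.7 CPM in CTRL, 563 CPM in PWD2 and 216 CPM in PWD7. Cxcl14 stood at 58.5, 960 and 43.3 CPM. The 2 ligands thus shared a highest value at day 2, while at day 7 Cxcl12 was above and Cxcl14 below the CTRL level. Among the 19880, 19571 and 20131 genes with a UMI in CTRL, PWD2 and PWD7, Cxcl14 ranked 2326th, 162nd and 3352nd by level, and Cxcl12 ranked 1794th, 243rd and 651st. Ackr3 stood at 231, 157 and 71.9 CPM, lowest at day 7. Cxcr4 went the other way, from 2.62 CPM in CTRL to 9.81 at day 2 and 22.4 at day 7. These library levels also move with which cells each digest released, so the classes are taken one at a time.

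Fibroblast-like cells held most of the UMIs of Cxcl12, Cxcl14 and Ackr3. Of the library's Cxcl12 UMIs they held 88.0%, 98.8% and 95.7% in CTRL, PWD2 and PWD7. Their share of Ackr3 UMIs was 97.0%, 98.5% and 96.1%. For Cxcl14 it was 64.2%, 98.8% and 81.3%, and keratinocyte-like cells held 34.0% in CTRL and 12.6% at day 7. For Cxcr4 the fibroblast share was 20.6%, 12.5% and 28.9%, and no other class held over 19.2%. Of these fibroblast-gated Cxcr4 UMIs, 45.8%, 55.0% and 28.1% lay in cells outside the fibroblast clusters described below. In CTRL, 30.5% of them lay in an unnamed cluster led by Slc26a7. Cells that no list could name held 35.3%, 42.6% and 21.7% of Cxcr4 UMIs. Lymphoid cells held 19.2%, 2.68% and 14.5%. At day 2, neutrophil-like cells held 18.1% and dendritic-like cells 16.1%. At day 7, monocyte or macrophage-like cells held 16.2% and dendritic-like cells 10.2%. Keratinocyte-like cells held 9.09% in CTRL, and blood endothelial-like cells held 4.18% at day 7.

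**Figure D1:**
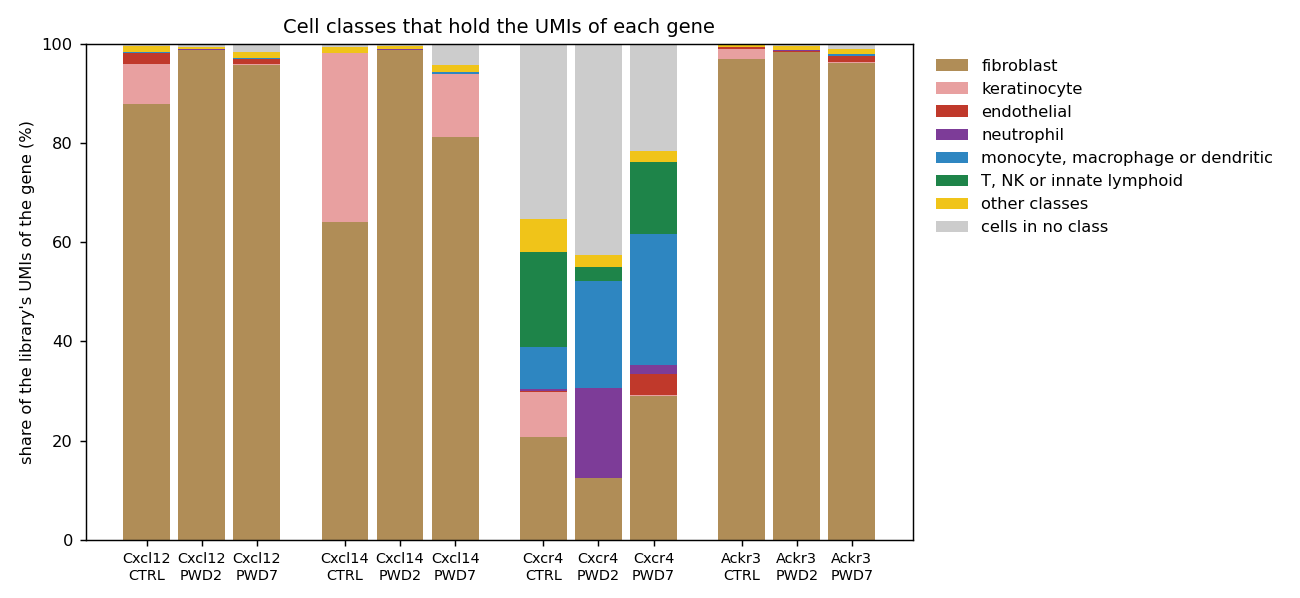
Share of each library's UMIs of a gene held by each cell class (y axis, percent of the gene's UMIs; 1 stacked bar per gene and library). Fibroblast-like cells hold 88.0% to 98.8% of Cxcl12 and 96.1% to 98.5% of Ackr3, but 12.5% to 28.9% of Cxcr4.

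In fibroblast-like cells (6621, 4388 and 3062 cells), Cxcl12 stood at 107 CPM (105 to 110) in CTRL, 591 CPM (586 to 595) at day 2 and 251 CPM (247 to 255) at day 7. The 3 intervals do not overlap, but they cover counting error alone and leave out the spread between cells and animals. The day 2 level was 5.50 times CTRL (5.37 to 5.64), the day 7 level was 2.34 times CTRL (2.28 to 2.40), and from day 2 to day 7 it was 2.35-fold lower. Day 2 was therefore the highest of the 3 libraries and day 7 lay between. A UMI of Cxcl12 was found in 33.6%, 87.2% and 65.8% of fibroblast-like cells. When each cell was thinned to 1000 UMIs to even out depth, the shares were 8.71%, 36.4% and 16.1%, in the same order.

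Cxcl14 had the widest spread of the 4 genes over time. Fibroblast-like cells carried 60.5 CPM (58.7 to 62.4) in CTRL, 1007 CPM (1002 to 1013) at day 2 and 42.7 CPM (41.2 to 44.2) at day 7. The day 2 level was 16.6 times CTRL (16.1 to 17.2), and day 7 was 23.6-fold lower than day 2. On the CPM scale the day 7 level was 0.706 of CTRL, or 1.42-fold lower, while counted as UMIs per cell it was 1.69 times CTRL, since day 7 fibroblasts held more UMIs in all. The share of fibroblast-like cells with a UMI was 16.6%, 68.2% and 22.6%, and 4.99%, 31.7% and 3.03% after thinning.

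On the CPM scale Ackr3 was lower in both wound libraries. It stood at 361 CPM (356 to 365) in CTRL, 164 CPM (161 to 166) at day 2 and 83.7 CPM (81.7 to 85.8) at day 7. The day 2 level was 2.20-fold lower than CTRL in CPM, but as UMIs per cell it was 1.16 times CTRL, so the direction at day 2 depends on the scale. The day 7 level was 4.31-fold lower in CPM and 0.557 of CTRL per cell, lower on both scales. Without thinning, 65.7%, 76.3% and 40.3% of cells had a UMI, an order that goes against the level. After thinning the shares were 26.2%, 13.8% and 7.19%, in the order of the level.

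Depth per cell stands behind these paired readings. The mean fibroblast-like cell held 10214 UMIs in CTRL, 26162 at day 2 and 24497 at day 7. Per cell, Cxcl12 came to 1.10, 15.5 and 6.15 UMIs, Cxcl14 to 0.618, 26.4 and 1.05, and Ackr3 to 3.68, 4.28 and 2.05. On this scale the day 2 ratios over CTRL were 14.1 for Cxcl12 and 42.6 for Cxcl14. Whether deeper sequencing or more RNA per cell lies behind the larger totals was not tested.

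The 2-fold rule used below counts a gene as apart when log2(CPM + 5) differs by at least 1. At day 2 over CTRL, 2 of the 4 genes were higher (Cxcl12 and Cxcl14) and 1 was lower (Ackr3), where 10.5% and 6.65% of all 16355 genes measured in fibroblasts were higher and lower. At day 7 over CTRL, Cxcl12 and Cxcr4 were higher and Ackr3 lower, against 7.71% and 3.94% of 16444 genes. At day 7 over day 2, Cxcr4 was higher and Cxcl12 and Cxcl14 lower, against 3.29% and 1.49% of 16603 genes. The Cxcr4 calls sit close to the cut, at log2 differences of 1.13 over CTRL and 1.03 over day 2. Both end with TMM scaling (0.97 and 0.96) and when only gated cells in fibroblast clusters are counted (0.97 and 0.95). The second also ends with a wider gate margin. The call of Cxcl12 at day 7 over CTRL ends with TMM scaling (0.78) and in thinned cells (0.82), with the direction kept. Thinning also puts Cxcl14 past the cut at day 7 over CTRL (-1.21), and TMM scaling puts Ackr3 past it at day 7 over day 2 (-1.09). The genes were chosen on these contrasts, so nothing is read from the counts.

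**Figure D2:**
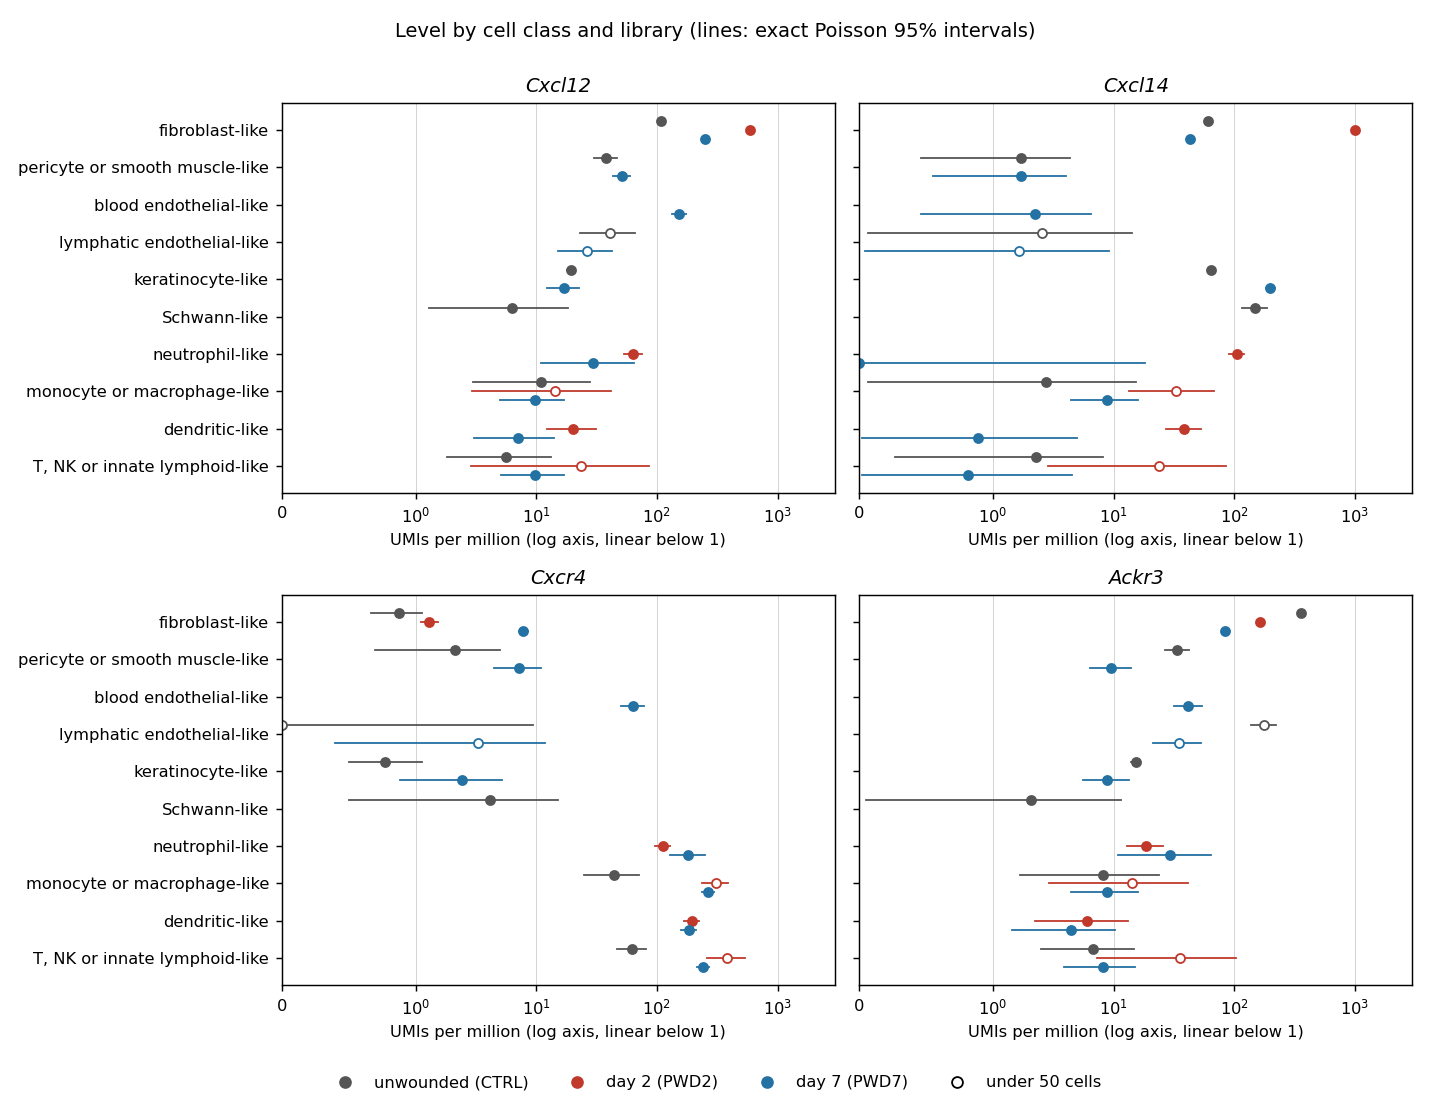
Level of each gene by cell class and library (CPM, log axis; linear under 1; points are levels, lines exact Poisson 95% intervals). Open points are classes under 50 cells. Fibroblast-like cells reach 591 CPM of Cxcl12 and 1007 CPM of Cxcl14 at day 2 and 361 CPM of Ackr3 in CTRL, while their Cxcr4 stays at or under 7.84 CPM.

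Levels varied widely from cell to cell. In CTRL the 10% of fibroblast-like cells with most Cxcl12 held 68.8% of its UMIs, against 42.0% at day 2 and 52.2% at day 7. For Cxcl14 the top 10% held 89.4%, 67.0% and 85.2%. A single day 2 cell carried 820 UMIs of Cxcl14, and the highest CTRL and day 7 cells carried 76 and 129. The median day 2 fibroblast held 0.70 UMIs of Cxcl14 per 10000 UMIs and the 90th percentile 40.8, while the CTRL and day 7 medians were 0. For Cxcl12 the medians were 0, 3.47 and 0.85 per 10000, so at day 2 Cxcl12 was spread over most cells and Cxcl14 more unevenly. For Ackr3 the medians were 1.35, 1.17 and 0.

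**Figure D3:**
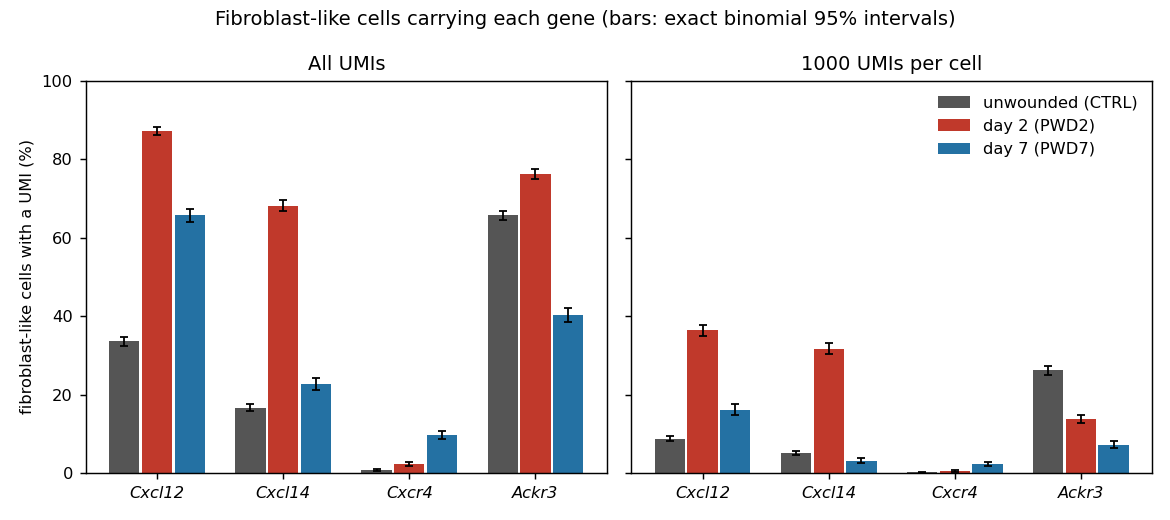
Share of fibroblast-like cells with a UMI of each gene in each library (y axis, percent of cells; bars show shares with exact 95% intervals, with and without thinning to 1000 UMIs per cell). For Ackr3 the unthinned share is highest at day 2 (76.3%), while the thinned share is 26.2%, 13.8% and 7.19%.

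Clustering of all kept cells gave 32 clusters, of which fibroblast-like cells of CTRL filled 6 main ones and those of day 2 filled 2. In CTRL, Cxcl12 and Cxcl14 were both highest in a cluster led by Myoc and Inmt (1123 cells), at 425 and 403 CPM. A cluster led by C6 and Tnmd (713 cells) held 280 CPM of Cxcl12 but 17.2 CPM of Cxcl14. Ackr3 was highest in another cluster, led by Smpd3 and Pi16 (1642 cells), at 1215 CPM (1197 to 1233), with a UMI in 97.8% of cells, where Cxcl12 stood at 24.8 and Cxcl14 at 3.03 CPM. In CTRL the highest ligand levels and the highest Ackr3 level thus lay in different clusters. The Myoc cluster still held 337 CPM of Ackr3, with a UMI in 60.7% of cells, so the separation was partial. Pi16 is a gene of fascial and adventitial fibroblasts.

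At day 2, the larger cluster, led by Cxcl5 and Car4 (2788 cells), held 476 CPM of Cxcl12, 733 CPM of Cxcl14 and 147 CPM of Ackr3. The other, led by the acute-phase gene Saa3 and the lubricin gene Prg4 (1328 cells), held 949, 1848 and 216 CPM. All 3 genes were thus higher in the Saa3 cluster. At day 7, the main cluster, led by Tnn and Prss35 (1598 cells), held 288 CPM of Cxcl12 and 42.7 CPM of Cxcl14, with 31.5 CPM of Ackr3. The cluster led by H19 and Dlk1 (493 cells) held 179, 32.3 and 363 CPM. Its Ackr3 was higher and its Cxcl12 lower than in the main day 7 cluster, unlike at day 2.

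A cluster led by the matrix genes Coch and Fmod was the only fibroblast cluster with more than 50 cells in both CTRL and PWD7. Its Cxcl12 level was 51.6 CPM in CTRL (623 cells) and 203 CPM at day 7 (180 cells), a ratio of 3.94 (3.34 to 4.66). Cxcl14 was 88.2 and 62.6 CPM there, and Ackr3 49.9 and 36.3 CPM. Cxcr4 was 5.47 and 20.9 CPM, from 23 and 46 UMIs, a ratio of 3.82 (2.27 to 6.60). Within the same cluster, then, Cxcl12 was again the ligand with the higher day 7 level.

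**Figure D4:**
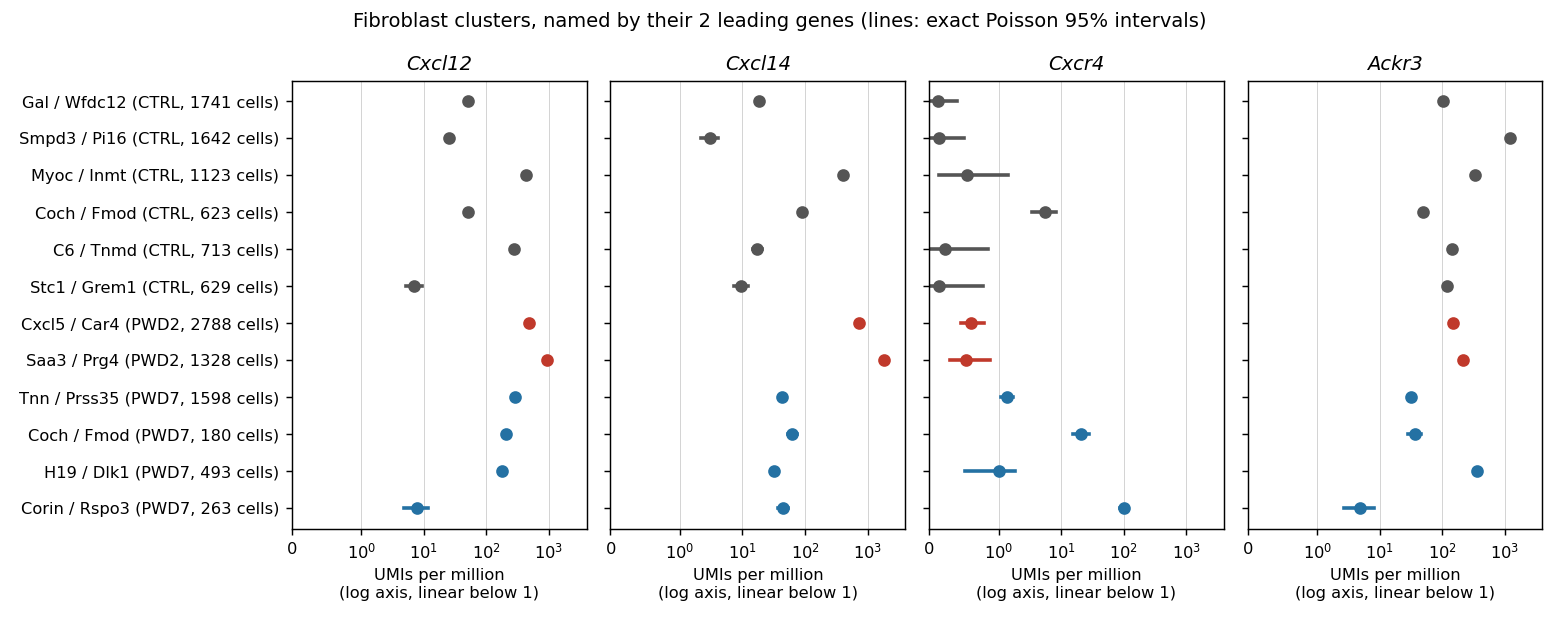
Level of each gene (CPM, log axis, linear under 1; lines are exact Poisson 95% intervals) in the fibroblast clusters of each library, each named by its 2 leading genes. In CTRL the Smpd3/Pi16 cluster has 1215 CPM of Ackr3 and 24.8 CPM of Cxcl12, and at day 2 both clusters have at least 476 CPM of Cxcl12.

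The 2 ligands were found together in single fibroblasts in every library. Cells were thinned to 5000 UMIs and pooled over clusters, and those with fewer UMIs were left out (1116, 559 and 673 cells). The odds ratio of Cxcl12 with Cxcl14 was 2.62 in CTRL, 2.22 at day 2 and 1.68 at day 7. Both were present in 4.38%, 39.0% and 6.66% of cells. Cxcl14 and Ackr3 had odds ratios of 0.749, 0.718 and 0.657, below 1 in all 3 libraries. Cxcl12 and Ackr3 had 0.802, 1.26 and 0.806, on both sides of 1. An odds ratio above 1 means that cells with one gene had the other more often. Cells are not replicates, and these ratios carry no test.

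Cxcr4 was rare in fibroblast-like cells, at 0.87 CPM (59 UMIs) in CTRL, 1.30 CPM (149 UMIs) at day 2 and 7.84 CPM at day 7. The day 2 ratio of 1.49 turned to 0.736 when classes were set by clusters. Of the 588 UMIs at day 7, 285 (48.5%) lay in 257 cells of one cluster, led by Corin and Rspo3. Another 165 (28.1%) lay among the 379 gated cells outside fibroblast clusters. The Corin cluster (263 cells of median 5536 UMIs) stood at 100 CPM (89.1 to 113), with a UMI in 51.3% of cells. In its 253 cells without a UMI of the leukocyte gene Ptprc, Cxcr4 was 106 CPM (93.8 to 119). The same cluster held 7.64 CPM of Cxcl12 and 4.86 CPM of Ackr3. The day 7 Coch cluster held both genes, with 203 CPM of Cxcl12 and 20.9 CPM of Cxcr4. Its 46 Cxcr4 UMIs all lay in cells without a Ptprc UMI. The highest Cxcl12 and Cxcr4 levels at day 7 thus lay in different fibroblast clusters, but the separation was partial. Corin encodes a protease known from the dermal papilla. Gated fibroblasts with a Ptprc UMI were 0.529%, 7.79% and 11.4% of the class, and the part of leukocyte RNA in the other Cxcr4 UMIs was not tested.

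In the gated fibroblast-like cells the 8 fibroblast markers had summed levels of 140058, 33384 and 75289 CPM. The markers of other classes had medians of 0 to 1.53 UMIs per 10000 in these cells. The gate was set on these same marker lists, so their levels cannot test the label. Cells outside fibroblast clusters made up 2.43%, 5.45% and 12.4% of the gated class. Within fibroblast clusters alone, an alternative added after the data were seen, the day 2 ratios over CTRL were 5.21 for Cxcl12, 16.0 for Cxcl14 and 0.428 for Ackr3, close to the values above.

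In lymphoid cells, Cxcr4 was higher in both wound libraries. T, NK or innate lymphoid-like cells stood at 61.9 CPM (46.6 to 80.6; 230 cells) in CTRL, 378 CPM (259 to 534; 48 cells) at day 2 and 241 CPM (214 to 270; 370 cells) at day 7. The ratios over CTRL were 6.10 (3.82 to 9.61) and 3.89 (2.91 to 5.28), where 18.4% and 14.9% of all genes measured in this class were at least 2-fold higher. The share of cells with a UMI was 15.2%, 37.5% and 38.6%, and 5.73%, 31.6% and 20.1% after thinning. The share was 1.66% and 4.82% in keratinocyte-like cells of CTRL and day 7, which are deeper (medians of 16864.5 and 14829 UMIs). The lymphoid medians were 3580, 1552 and 2599 UMIs.

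The lymphoid clusters differed among themselves. The cluster led by Il17a, Gzmc and Gzma, lymphoid only by a naming rule added after the data were seen, stood at 86.1, 695 and 183 CPM of Cxcr4 (326, 131 and 346 cells). The cluster led by Ctla4 and Foxp3, the regulatory T cell factor, held 276 CPM at day 7, with a UMI in 50.3% of 286 cells. A cluster led by Cd7 and Cd3g stood at 8.15 CPM in CTRL and 8.61 CPM at day 7, from 2 UMIs and 1 UMI. When classes were set by majority of clusters, the CTRL class (109 cells, 19.5 CPM) was 74 cells of this low cluster and 35 Foxp3 cluster cells. The day 7 ratio was then 12.9, so the size of the ratio depends on which lymphoid cells are counted.

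Myeloid cells carried Cxcr4 in both wound libraries. Monocyte or macrophage-like cells stood at 43.7 CPM (72 cells) in CTRL, 307 CPM (47 cells) at day 2 and 266 CPM (127 cells) at day 7, with ratios over CTRL of 7.03 (4.02 to 13) and 6.08 (3.69 to 10.8), beside 12% and 12.2% of genes higher in that class. The cluster led by Arg1 and Rsad2, of which 31.0% of cells met the fibroblast gate, stood at 81.9 CPM at day 2 (361 cells of median 1831 UMIs) and 190 CPM at day 7, so the day 2 level depends on which cells are counted. Dendritic-like cells stood at 194 CPM (221 cells) and 184 CPM (150 cells) at day 2 and day 7, a ratio of 0.945 with an interval of 0.773 to 1.16. The dendritic clusters differed. The one led by Cd207, of which 19.7% of cells met the dendritic gate, is dendritic only by the naming rule added after the data were seen. It went from 326 to 206 CPM, a ratio of 0.634 (0.553 to 0.726). The one led by Ccl22 and Ccr7 went from 92.0 to 127 CPM, a ratio of 1.38 (0.987 to 1.94), an interval that includes equal levels. The ratio of the class was accordingly 0.706 with clusters named by excess score and 1.38 by majority clusters, which hold the Ccr7 cluster alone. Neutrophil-like cells, of median 916 UMIs at day 2, stood at 112 CPM (97.2 to 127; 1835 cells) and then 183 CPM (129 to 252; 152 cells), a ratio of 1.64 (1.12 to 2.33) under 2-fold.

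Endothelial and mural cells were few. Blood endothelial-like cells stood at 844 CPM of Cxcl12 in CTRL (29 cells) and 153 CPM (133 to 176; 82 cells) at day 7, where 1 cell held 20.9% of the UMIs and the level without it was 125 CPM. Their Cxcr4 was 4.77 CPM from 1 UMI in CTRL and 63.3 CPM (50.6 to 78.3) at day 7, or 52.5 CPM without the top cell. The CTRL cells fall under the 50-cell minimum, so both endothelial changes rest on few cells. Lymphatic endothelial-like cells carried 175 CPM (136 to 222; 41 cells) of Ackr3 in CTRL and 34.5 CPM (21.4 to 52.8; 46 cells) at day 7, also under that minimum, 5.07-fold lower beside 6.68% of genes lower by the 2-fold rule. In pericyte or smooth muscle-like cells (295 and 179 cells), Ackr3 was 33.8 CPM in CTRL and 9.59 CPM at day 7, 3.53-fold lower, beside 8.59% of genes lower. Their Cxcl12 was 37.7 and 51.4 CPM, a ratio of 1.36 (1.04 to 1.79), or 1.16 (0.885 to 1.53) with TMM scaling. The class mixes clusters: within the pericyte cluster led by Rgs5 (234 and 196 cells) Cxcl12 was 66.2 and 55.4 CPM, a ratio of 0.837 (0.646 to 1.09), so the direction turns. The smooth muscle cluster led by Actg2 held 1.89 CPM from 2 UMIs in 66 CTRL cells. Ackr3 in the Rgs5 cluster was 58.7 and 15.3 CPM, 3.84-fold lower, while by majority clusters the class ratio was 0.457 and no longer past the 2-fold rule.

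On the CPM scale, Cxcl14 at day 7 was higher than CTRL in keratinocyte-like cells and lower in fibroblast-like cells, whose ratio is 1.69 as UMIs per cell. They stood at 64.3 CPM (61.6 to 67.0; 1504 cells) in CTRL and 200 CPM (183 to 218; 83 cells) at day 7, a ratio of 3.11 (2.81 to 3.43), beside 4.84% of genes at least 2-fold higher. The share with a UMI was 45.1% and 45.8%, and 6.47% and 12.7% after thinning. At day 7, 8 cells held 74.8% of the UMIs and 1 of them 23.1%, and the level without that cell was 159 CPM. The Krt15-led basal cluster stood at 112 CPM in CTRL (633 cells) and 307 CPM at day 7 (67 cells). The suprabasal clusters led by Lor and by Mt4 and Krt1 held 37.1 and 32.1 CPM in CTRL, so in resting epidermis the gene was higher in the basal cluster. Cxcl14 in CTRL Schwann-like cells was 148 CPM, with 1 of 147 cells holding 39.4% of the UMIs.

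Free RNA in droplets gives low counts in cells that do not express a gene. At day 2, neutrophil-like cells held 10.8%, 10.4% and 11.3% of the fibroblast level of Cxcl12, Cxcl14 and Ackr3, beside 15.5% for Col1a1, 11.4% for Col3a1 and 5.87% for Dcn, matrix genes of fibroblasts. Their shares with a UMI were 6.54%, 9.92% and 1.96%. Day 2 dendritic-like cells held 3.41%, 3.80% and 3.69%, beside 5.48%, 3.95% and 2.00% for the same matrix genes. In both classes the 3 members lay between Dcn and Col1a1, and whether free RNA accounts for their UMIs was not tested. Keratinocytes in CTRL held 106% of the fibroblast Cxcl14 level against 0.76% for Col1a1. For Cxcl12, CTRL pericyte or smooth muscle-like cells held 35.1% against 0.86%, and day 7 endothelium held 61.2% against 4.87%. Day 7 pericyte or smooth muscle-like cells lay closer to the collagens, with 20.5% for Cxcl12 and 11.4% for Ackr3. Their matrix shares were 14.3% for Col1a1, 15.2% for Col3a1 and 2.53% for Dcn. The part of free RNA in these classes was not tested either.

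The other genes of the CXCL12 pathway were taken as 6 lists, chosen with earlier results known. Of 68 listed genes measured in fibroblasts, 14 were at least 2-fold higher and 11 lower at day 2 over CTRL, with a median over all genes of 0.04 (log2). At day 7 over CTRL, 16 of 69 were higher and 11 lower, or 11 and 13 after TMM scaling, which moved the median of all genes from 0.13 to 0.01. At day 7 over day 2 the split was 9 and 9, or 7 and 11 with TMM. Beside this, 17.1%, 11.7% and 4.78% of all genes were apart by the rule. By direction, 10.5% were higher and 6.65% lower at day 2 over CTRL, and 7.71% and 3.94% at day 7 over CTRL. The counts of each list below stand beside these shares. The 18 signalling genes, with 2 higher and 1 lower at day 2, lie near them.

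Genes that cut CXCL12 moved unevenly: 1 of 6 measured was higher and 3 lower at day 2, with a list median of -1.16 (log2). Dpp4, the dipeptidyl peptidase that trims its amino end, went from 199 CPM in CTRL to 25.9 at day 2 and 24.4 at day 7. Mmp2, a gelatinase, went from 1496 to 389 and 890 CPM, while Mmp9, another gelatinase, went from 0.133 to 9.49 and 42.9 CPM. Mmp14, the membrane metalloprotease, was at 531, 321 and 1399 CPM. At day 7, 2 of the 6 were higher and 1 lower.

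Of 14 heparan sulphate genes, whose chains hold chemokines at the cell surface, 3 were higher and 2 lower at day 2, and 5 higher and 2 lower at day 7. The syndecan gene Sdc1 was at 22.0 CPM in CTRL and 196 CPM at day 2, a log2 ratio of 2.89, and 2.55 at day 7. The glypican gene Gpc1 had ratios of 2.27 and 3.28, and Gpc3 of -1.84 at day 2. Ext1, which polymerises the chain, had 1.80 at day 2. Of 18 signalling genes, 2 were higher and 1 lower at both days. Rgs16, which speeds the shut-off of G protein signals, went from 1.38 to 66.0 CPM at day 2, a log2 ratio of 3.48, and was 3.68 at day 7. Elmo1, a partner of DOCK proteins, had -1.33 and -1.06, and the arrestin gene Arrb2 had 0.16 and 0.31. Rgs1, a regulator of the same kind that leukocytes also express, had 1.59 at day 7, but 0.74 when only cells in fibroblast clusters were counted, so its 2-fold call ends there.

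Of the other ligands and receptors, 2 of 8 were higher and 3 lower at day 2, and 3 of 9 higher and 4 lower at day 7. Mif, a cytokine that also binds CXCR4, went from 123 to 1455 and then 557 CPM, although its processed copies make the counts uncertain. Penk, whose peptides ACKR3 takes up, had a log2 ratio of -3.43 at day 7. Calcrl, an adrenomedullin receptor gene, had -1.78 and -1.66, and its ligand gene Adm had 0.50 and -1.09. Cd74, the MIF receptor and an antigen presentation gene, had 1.85 at day 7 and 1.27 within fibroblast clusters. Of 10 hypoxia genes, 5 were higher and 0 lower at day 2 and 4 and 0 at day 7. Hif1a, a subunit of the hypoxia-inducible factor, went from 106 to 685 CPM, a log2 ratio of 2.64, and Epas1, Slc2a1 and Pgk1 had 2.26, 2.15 and 2.67. Of 12 stromal niche genes, 1 was higher and 2 lower at day 2, and 0 and 3 at day 7. Grem1, a BMP antagonist, was at 150 CPM in CTRL and 3.62 at day 2, a log2 ratio of -4.17, and Vcam1, an adhesion molecule, had 1.48. Kitl, the KIT ligand, had 0.59 and -0.30.

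**Figure D5:**
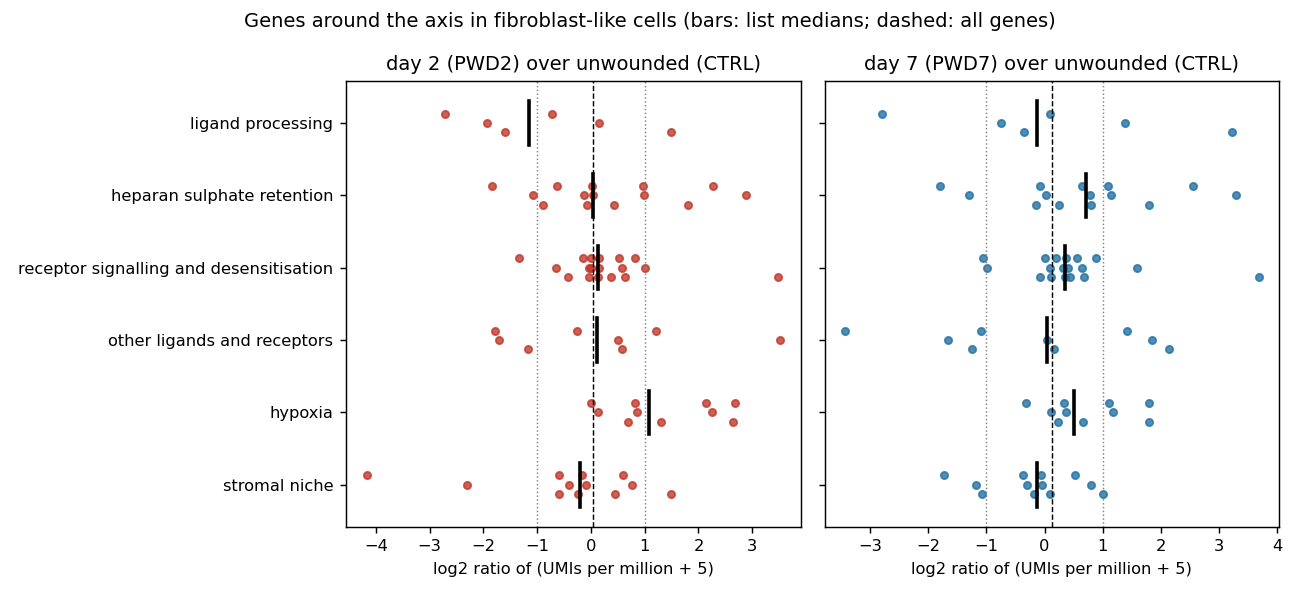
Log2 ratio of CPM + 5 in fibroblast-like cells for the measured genes of the 6 lists at day 2 and day 7 over CTRL (1 point per gene; x axis, log2 ratio; bars are list medians, the dashed line the median of all genes and dotted lines 2-fold). The ligand processing list has a median of -1.16 at day 2 and the hypoxia list of 1.08, where the median over all genes is 0.04.

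Over the 19 pairs of class and library with at least 50 cells, the genes nearest to Cxcl12 by Pearson's r of log2(CPM + 5) were Fkbp10 (r = 0.916), Ipo4 (0.915), Sulf1 (0.910), Bicc1 (0.910) and Steap2 (0.909). Nearest to Cxcl14 were Mt2 (0.924), Chl1 (0.860), Il33 (0.829), Mt1 (0.826) and Aldh1a3 (0.780). Nearest to Ackr3 were Scara3 (0.923), Sfrp4 (0.888), Svep1 (0.887), Adgrd1 (0.885) and Aldh1l2 (0.882). Nearest to Cxcr4 were Lcp1 (0.958), Hcls1 (0.954), Inpp5d (0.953), Traf1 (0.934) and Tank (0.916). Mt1 and Mt2 are metallothioneins, and Lcp1 and Hcls1 are leukocyte cytoskeleton genes. The pairs include erythroid-like cells of day 2 and day 7. At day 2 that class held 43.3% of the fibroblast Cxcl12 level and 65.6% of Cxcl14, beside 70.7% for Col1a1 and 76.3% for Dcn. How far this class sets the r values was not tested. The pairs share libraries and depth, so these are descriptions without a test.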

How the data were processed

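The authors deposited unnormalized whole-number UMI counts, 1 matrix of genes by cell barcodes per library. Cell Ranger 3.0.2 and Seurat 3.0 are named in the submitters' processing notes, and the file headers name Cell Ranger 5.0.0, a difference not resolved here. The labels give mm10 as the genome. No test between groups was run, since each group has 1 library. The members and lists were chosen with earlier results of these data known.

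Cells needed at least 200 genes and at most 10% mitochondrial UMIs. Doublets were the barcodes with the top Scrublet scores (0.8% per 1000 barcodes), because its own threshold marked 373, 1 and 0. A class was given where the best of 16 lists of 8 markers scored at least 0.25 and led by 0.1. CPM were compared as log2(CPM + 5). Clusters were made with scanpy 1.11.5 and leidenalg 0.10.2 (Python 3.11.15), and TMM factors with edgeR 4.0.16 (R 4.3.3). The ratio was checked on simulated counts: 50 genes set to 4-fold gave a median of 4.00. The 2-fold rule called 88% of these, 60% of 50 genes set to 0.25 and 2% of 50 set to 2-fold, since the added 5 CPM shrinks ratios. Named genes were the 4 members, the 5 nearest genes of each, and from each list the 4 with the largest log2 ratio, with 8 fixed genes. Ratios were recomputed under other filters, scalings, gates and class rules.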

Additional observations from a re-analysis of the deposited data

Results flagged for a closer look

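Cxcl14 in PWD7 against CTRL went in opposite directions in 2 cell classes. In fibroblast-like cells it was 0.706 of the CTRL level in CPM, and in keratinocyte-like cells 3.11 times it. As UMIs per cell, the fibroblast ratio turns to 1.69, so the opposition does not hold on that scale. The difference between the classes was not tested, since each group has 1 library.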

How the results depend on the processing

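No paired analysis was possible because each group holds 1 library. Fibroblast ratios over CTRL follow, in the order Cxcl12, Cxcl14, Ackr3 at day 2 and then at day 7. With TMM factors they were 4.81, 14.6, 0.397, 1.75, 0.527 and 0.173. In cells thinned to 1000 UMIs, Cxcl14 and Ackr3 at day 2 were 11.6 and 0.371, and the day 7 values 1.80, 0.404 and 0.205. Without doublet removal, Cxcl14 was 17.3 and Ackr3 0.464 at day 2 and 0.239 at day 7. A gate margin of 0.2 gave 0.443 for Ackr3 at day 2. With 3 alternatives chosen after seeing the data, named clusters by excess score gave 5.21, 16.0, 0.428, and at day 7 2.25 for Cxcl12 and 0.221 for Ackr3, and the gate within fibroblast clusters gave 5.21, 16.0, 0.428, 2.25 and 0.221. UMIs per cell gave 14.1, 42.6 and 1.16, then 5.61, 1.69 and 0.557, which turned the direction of Ackr3 at day 2 and of Cxcl14 at day 7, because cells differ in depth. Cxcr4 in lymphoid cells by majority clusters was 23.6 at day 2 and 12.9 at day 7, since other cells are counted. In fibroblasts by clusters, Cxcr4 at day 2 turned from 1.49 to 0.736. The totals of list genes apart stayed within 1.5 times under each alternative run, but with a pseudocount of 1 CPM the day 7 over day 2 split went from 9 higher and 9 lower to 15 and 10. Of 68 alternative values of the 8 main ratios, 59 lay within 1.5 times of the reported one and 2 reversed. Few cells limit several values: 48 lymphoid cells at day 2 gave 32 UMIs of Cxcr4, and 29 blood endothelial cells in CTRL gave 1.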
